A study of Homo sapiens with 6 samples.

Results

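ZBTB factors are the relatives of PLZF, the repressor that gives its N-terminal part to the leukaemia fusion PLZF-RARA. The members were the genes named ZBTB plus a number in the platform's annotation, with ZBTB16, the gene of PLZF itself, left out. There were 40 such genes among 19775 genes with a probe set naming only them, and they held 98 of 54613 probe sets. Each gene was represented by its probe set with the highest mean log2 intensity over the 6 arrays. The values come from U937T:PLZF-RARa, a line engineered from human monocytic U937 cells. It is kept in tetracycline, puromycin and G418 and it makes the fusion once tetracycline is withdrawn. RNA was taken from 3 uninduced samples, also labelled 48 h, and from 3 samples washed and cultured for 48 h without tetracycline. Each sample was hybridised to 1 Affymetrix HG-U133 Plus 2.0 array. All samples carry the transgene. No line without it was analysed here, so the fusion and the withdrawal of tetracycline cannot be told apart. The labels do not say whether replicates were separate cultures or whether the line is 1 clone, so each p-value reflects the scatter of these arrays, which may be technical. With 3 arrays a group the precision is limited.

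ZBTB proteins pair a BTB domain, through which they dimerise and bind corepressors or the ubiquitin ligase scaffold cullin 3, with C-terminal zinc fingers that read DNA. Many are repressors, and several set the fate of blood cells: PLZF acts in stem cells and innate-like lymphocytes, ZBTB7B in helper T cells and ZBTB46 in dendritic cells. In the fusion the BTB domain of PLZF recruits corepressors to sites bound by RARA.

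The RARA probe set 211605_s_at lay at 1.99, 1.81 and 1.82 on the uninduced and at 7.73, 7.62 and 7.40 on the induced arrays, and the single ZBTB16 probe set at 5.49, 5.19 and 5.08 and then at 3.08, 2.84 and 3.96. The first of these separates the groups in the direction of the labels, and the second went down. Of the other RARA probe sets 203749_s_at fell (-1.17, adjusted p = 1.1e-05), 203750_s_at and 216300_x_at did not pass (-0.22, adjusted p = 0.133, and -0.12, adjusted p = 0.301), and 1565358_at lay at 1.91 in both groups. Which part of each transcript the probes cover was not analysed here. Of 9 genes listed as myeloid markers, 7 lay above the filter on every uninduced array, among them LYZ, ELANE and AZU1, while none of 5 T cell, 3 B cell and 2 erythroid markers did. The myeloid markers ANPEP and MPO lay below the filter on every array of both groups. The B cell marker CD79B lay at 3.16, 2.31 and 2.95 and then at 3.91, 4.20 and 4.25, above the filter on 2 induced arrays and so not tested. The summed level of the 3 B cell markers ran from 8.74 to 9.64 and then from 9.97 to 10.6, and that of the 5 T cell markers from 10.5 to 10.9 and then from 11.0 to 11.3. All 5 T cell markers stayed under the filter on every array. Among them CD3E differed most, from a mean of 2.12 to 2.52, and CD3D came next with -0.0051. Of 4 epithelial and 4 fibroblast markers 1 each was measured, KRT8 (-0.0018, adjusted p = 0.981) and COL1A1, which fell from 8.26 ± 0.06 to 7.71 ± 0.09 (SD, n = 3 each). Of these 7 myeloid markers 6 were lower and 1, CD4, was higher in induced samples, beside 30.7% and 35.8% of all measured genes. Among the 6, SPI1 fell most, from a mean of 7.12 to 3.16, below the filter on every induced array. The summed log2 level of the 9 ran from 87.0 to 88.2 in uninduced and from 74.5 to 74.7 in induced samples, and the part of these shifts in the results below was not tested. In RNA from whole cultures, fewer cells with a transcript and less transcript per cell cannot be told apart.

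Of the 40 ZBTB genes 30 were measured, meaning a log2 intensity above 4 on at least 3 of the 6 arrays. In induced samples 12 of the 30 were higher, 6 were lower and 12 did not pass the test (limma, Benjamini-Hochberg adjusted over all 20552 tested probe sets, threshold 0.05). The 60.0% called compares with 66.5% of all 9834 measured genes. By direction, 40.0% of the ZBTB genes were higher, beside 35.8% of all genes, and 20.0% were lower, beside 30.7%. After quantile normalization 12 ZBTB genes were higher and 12 lower, and after median centring 12 and 8. Lower calls over all tested probe sets also grew, from 5733 to 8077 and 7106, and higher ones went from 7112 to 6759 and 6579. The 3 and 3 arrays did not overlap for 24 of the 30 genes, or 80.0%, beside 74.4% of all genes. Changes of 2-fold or more were called for 4 genes, or 13.3%, beside 19.6% of all genes. The median log2 difference was 0.11 over the 30 genes and 0.02 over all genes, and the median size of the difference was 0.37 and 0.42. As a group the ZBTB genes thus lay near the background of this comparison, and what follows concerns the single genes.

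**Figure D1:**
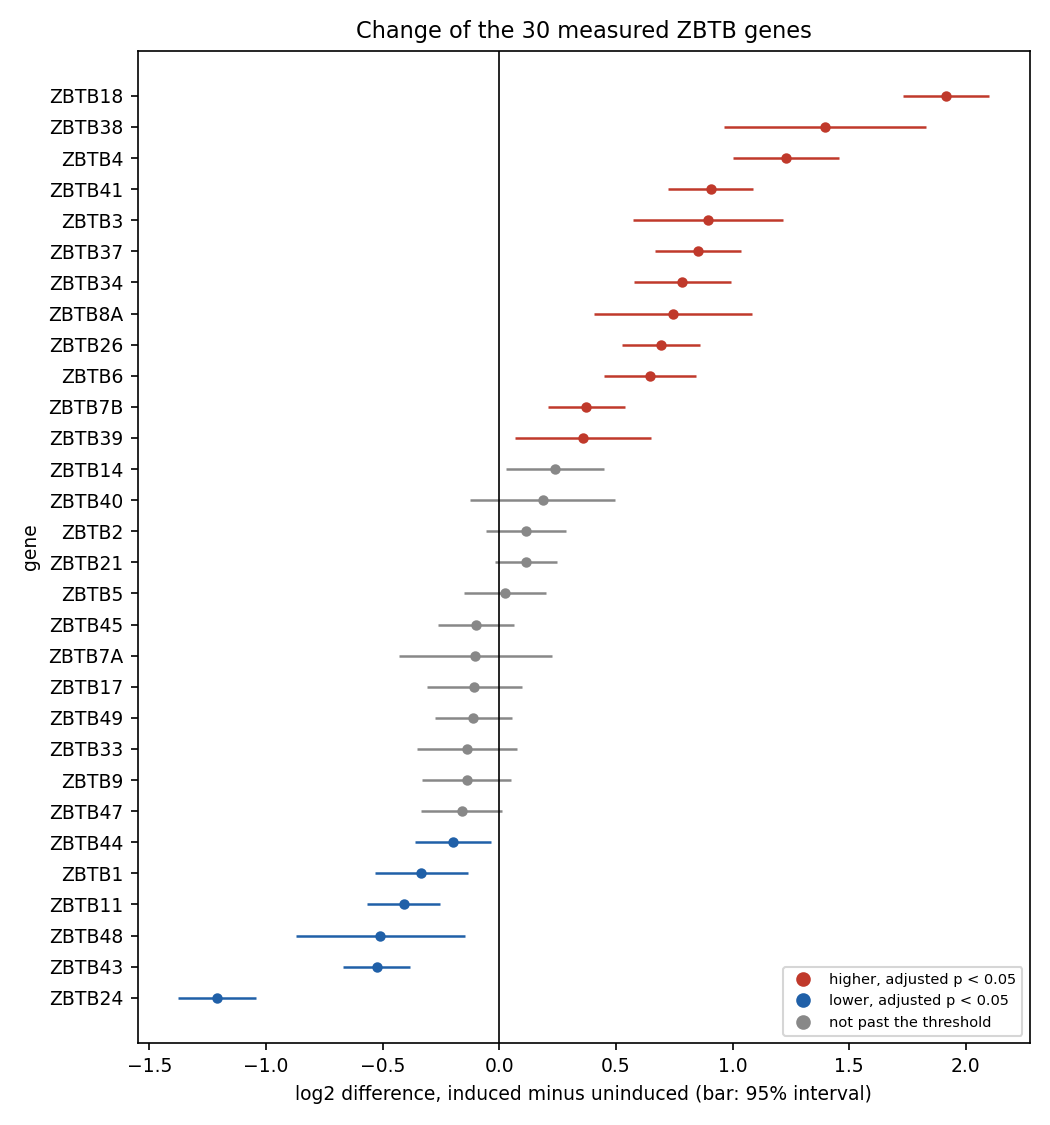
Log2 difference between induced and uninduced samples (x axis, log2 units) for the 30 measured ZBTB genes, 1 row per gene, with 95% intervals from limma. The 12 genes in red run from 0.36 to 1.92, the 6 in blue from -1.21 to -0.20, and the 12 in grey did not pass the test.

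ZBTB18 rose most. It encodes RP58, a repressor known from the developing cerebral cortex. Its log2 intensity was 9.53, 9.51 and 9.32 in uninduced and 11.43, 11.34 and 11.35 in induced samples, so the groups stood far apart and each was tight. The mean went from 9.45 ± 0.12 to 11.37 ± 0.05 (SD, n = 3 each), a 3.77-fold rise (log2 difference 1.92, SE 0.08; limma, adjusted p = 2.88e-06), the 309th highest difference of 9834 genes. A second ZBTB18 probe set, 207164_s_at, lay below the filter in both groups, at 3.49 ± 0.01 and 3.52 ± 0.05. The other factors listed with a role in the nervous system were ZBTB20, which was not measured, and ZBTB45. ZBTB45 lay at 5.13, 5.24 and 5.11 and then at 5.09, 4.98 and 5.11, with groups apart by little (-0.10, adjusted p = 0.245). It passed as lower after quantile normalization (-0.29, adjusted p = 0.0045), and the highest adjusted p among its alternatives was 0.541.

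Both ZBTB4 and ZBTB38 rose, while the third ZBTB factor that reads methylated DNA, ZBTB33, did not pass the test. ZBTB38 (CIBZ) lay at 5.22, 5.44 and 4.70 in uninduced and at 6.41, 6.57 and 6.56 in induced samples. Uninduced replicate 3 was its lowest array, and every induced array was brighter than every uninduced one. This replicate was also the lowest uninduced array of other members, such as ZBTB18, ZBTB4 and ZBTB24. Without it 6312 of all tested probe sets were called lower, against 5733, and 6564 higher, against 7112. ZBTB38 rose 2.63-fold (log2 difference 1.40, SE 0.18, limma adjusted p = 4.91e-04). Its other probe sets, 1558733_at, 219221_at, 230754_at and 236557_at, lay below the filter on every array. ZBTB4 went from 8.29, 8.41 and 8.17 to 9.66, 9.47 and 9.42, a 2.34-fold rise (1.23, SE 0.10; adjusted p = 4.20e-05). Its dimmer probe set 227047_x_at differed by 0.14 (adjusted p = 0.254), with overlapping groups. ZBTB33 (Kaiso), which binds methylated CpG pairs and partners p120-catenin, lay at 10.13, 10.15 and 9.90 and then at 9.85, 10.02 and 9.89. The groups overlapped and the difference was -0.14, with a 95% interval from -0.35 to 0.08 (adjusted p = 0.218). It passed as lower after quantile normalization (-0.19, adjusted p = 0.0315) and after median centring (-0.22, adjusted p = 0.016), with array weights (0.017) and without uninduced replicate 3 (0.042). The highest adjusted p among its alternatives was 0.470. Whether ZBTB33 differs from ZBTB4 and ZBTB38 in its change was not tested.

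Further rises, from 1.56-fold to 1.87-fold, were seen in 7 more factors. ZBTB41 went from 7.52, 7.58 and 7.41 to 8.32, 8.49 and 8.42, a 1.87-fold rise (0.91, SE 0.08; adjusted p = 5.85e-05). ZBTB3 went from 6.41, 5.99 and 5.97 to 7.02, 6.89 and 7.14 (1.86-fold, adjusted p = 0.00102). Its second probe set, 1553858_at, rose as well, from 5.47 ± 0.04 to 6.20 ± 0.28 (SD, n = 3 each; adjusted p = 0.0029), so both measured probe sets of this gene moved up. ZBTB37 went from 5.91, 5.86 and 5.88 to 6.88, 6.68 and 6.65 (0.85, SE 0.08, limma adjusted p = 8.99e-05). Its other probe sets, 223953_s_at and 231547_at, lay below the filter on every array, as did 1554973_a_at of ZBTB26. ZBTB34 went from 8.38, 8.44 and 8.19 to 9.19, 9.15 and 9.02 (1.72-fold, adjusted p = 2.32e-04). In ZBTB3 and ZBTB34, as in ZBTB37, no induced array reached down to an uninduced one. ZBTB8A went from 6.40, 6.33 and 5.90 to 7.09, 6.91 and 6.86 (0.74, SE 0.14; adjusted p = 0.00322). The last pair of this group are neighbours in the genome. ZBTB26 went from 7.06, 7.14 and 7.01 to 7.85, 7.75 and 7.69 (0.69, adjusted p = 1.45e-04), and ZBTB6 from 6.37, 6.41 and 6.32 to 7.06, 6.86 and 7.12 (0.65, adjusted p = 4.53e-04).

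Smaller rises were those of ZBTB7B and ZBTB39. ZBTB7B (ThPOK), the factor that commits T cells to the helper lineage, went from 8.25, 8.38 and 8.23 to 8.60, 8.67 and 8.71. That is a 1.29-fold rise, with groups apart (0.37, SE 0.07; adjusted p = 0.00274), while its second probe set, 205853_at, stayed below the filter. ZBTB39 went from 7.44, 7.52 and 7.09 to 7.62, 7.69 and 7.82 (0.36, SE 0.12; adjusted p = 0.0389). Its lowest induced array lay just above its highest uninduced one. Its call was lost without uninduced replicate 1 (adjusted p = 0.0519), without any 1 of the 3 induced replicates (0.0572 to 0.114), when replicate numbers entered as a block (0.061) and with no filter (0.136). The lowest adjusted p among its alternatives was 0.0242.

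**Figure D2:**
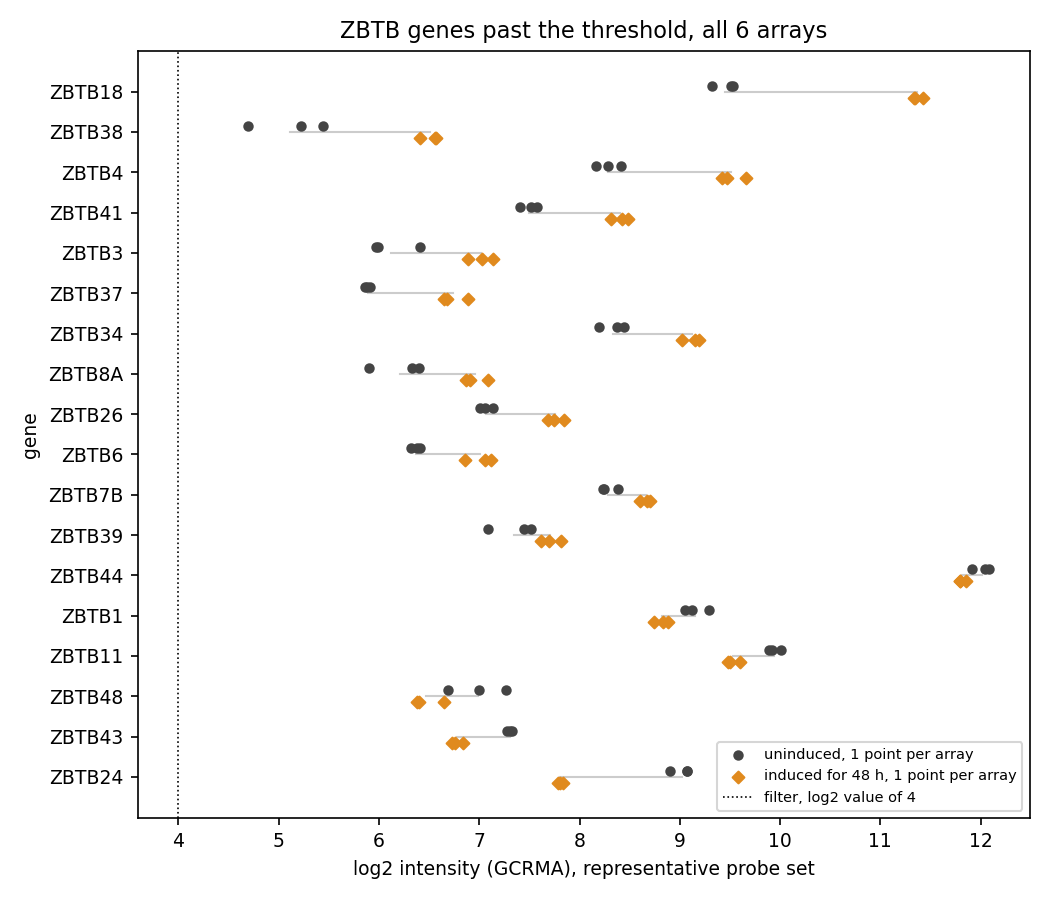
Log2 intensity (x axis) of the 18 ZBTB genes past the threshold on each of the 6 arrays, circles for uninduced and diamonds for induced samples, with a grey line between the group means. For all 18 genes the circles and diamonds do not overlap. The genes were chosen by a test on these same arrays, so this separation is no further evidence. Groups did not overlap for 74.4% of all measured genes. Levels of different probe sets cannot be set against each other.

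Among the falls ZBTB24 stood first. ZBTB24 is mutated in a form of the immunodeficiency syndrome ICF and is known to activate CDCA7, mutated in another form. Its representative lay at 9.08, 9.07 and 8.91 in uninduced and at 7.79, 7.80 and 7.84 in induced samples, a 2.31-fold fall (log2 difference -1.21, SE 0.07; limma, adjusted p = 1.13e-05). The probe set 1554036_at went from 8.16, 8.31 and 8.29 to 5.96, 5.86 and 6.50 (-2.14, adjusted p = 4.09e-05), and 1554037_a_at from 6.77, 6.50 and 6.46 to 5.52, 4.96 and 5.37 (-1.29, adjusted p = 3.59e-04). All 3 probe sets of ZBTB24 thus fell, with no overlap between groups in any. CDCA7 was lower too, at 13.03, 13.02 and 12.97 and then at 12.36, 12.35 and 12.39 (1.56-fold, adjusted p = 7.08e-05). Of all measured genes 30.7% were lower, and whether the falls of ZBTB24 and CDCA7 are linked was not tested.

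ZBTB48 and ZBTB11 also fell. ZBTB48 (TZAP) binds telomere repeats and is known to activate MTFP1, the gene of a mitochondrial fission protein. It went from 7.26, 6.997 and 6.69 to 6.40, 6.64 and 6.38 (-0.51, SE 0.15; adjusted p = 0.0231). Its highest induced array lay just under its lowest uninduced one. The call was lost without uninduced replicate 1 (adjusted p = 0.0537) or 2 (0.0585), without induced replicate 1 (0.0732) or 3 (0.0687) and with no filter (0.101). The lowest among its alternatives was 0.00207. MTFP1 fell from 9.49, 9.53 and 9.46 to 7.26, 7.46 and 7.55, a 4.20-fold decrease (-2.07, SE 0.09; adjusted p = 3.16e-06). Whether the falls of ZBTB48 and MTFP1 are linked was not tested either. ZBTB11, a factor needed for neutrophil development in zebrafish, went from 10.01, 9.92 and 9.89 to 9.48, 9.60 and 9.50 (-0.41, SE 0.07; adjusted p = 0.0014), with the groups apart.

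The other 3 falls were uneven across probe sets. ZBTB1, which is needed for lymphocyte development, went from 9.29, 9.12 and 9.05 to 8.89, 8.84 and 8.74 (-0.33, SE 0.08; adjusted p = 0.011). Its dim probe sets 1557036_at and 205092_x_at differed by -0.09 (adjusted p = 0.451) and -0.12 (0.242), and the mean over its probe sets did not pass (adjusted p = 0.062; lowest among the alternatives 0.0014). ZBTB43 went from 7.31, 7.32 and 7.28 to 6.76, 6.84 and 6.73 (-0.53, SE 0.06; adjusted p = 2.59e-04). Its dim probe sets 204180_s_at and 204181_s_at differed by -0.13 and -0.12 and did not pass (adjusted p = 0.131 and 0.222). For ZBTB1 and ZBTB43 only the brightest probe set among those measured was called. ZBTB44 went from 12.04, 12.09 and 11.91 to 11.79, 11.85 and 11.80 (-0.20, SE 0.07; adjusted p = 0.0408), with the groups apart by little. This call was lost when any 1 of the arrays other than uninduced replicate 3 was left out (adjusted p = 0.0631 to 0.132) and when replicate numbers entered as a block (0.0587). The lowest among its alternatives was 0.0025. Its probe sets 226148_at (-0.24, adjusted p = 0.0235) and 1554470_s_at (-0.43, adjusted p = 0.0126) fell too, and 1554469_at did not pass (-0.24, adjusted p = 0.271).

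**Figure D3:**
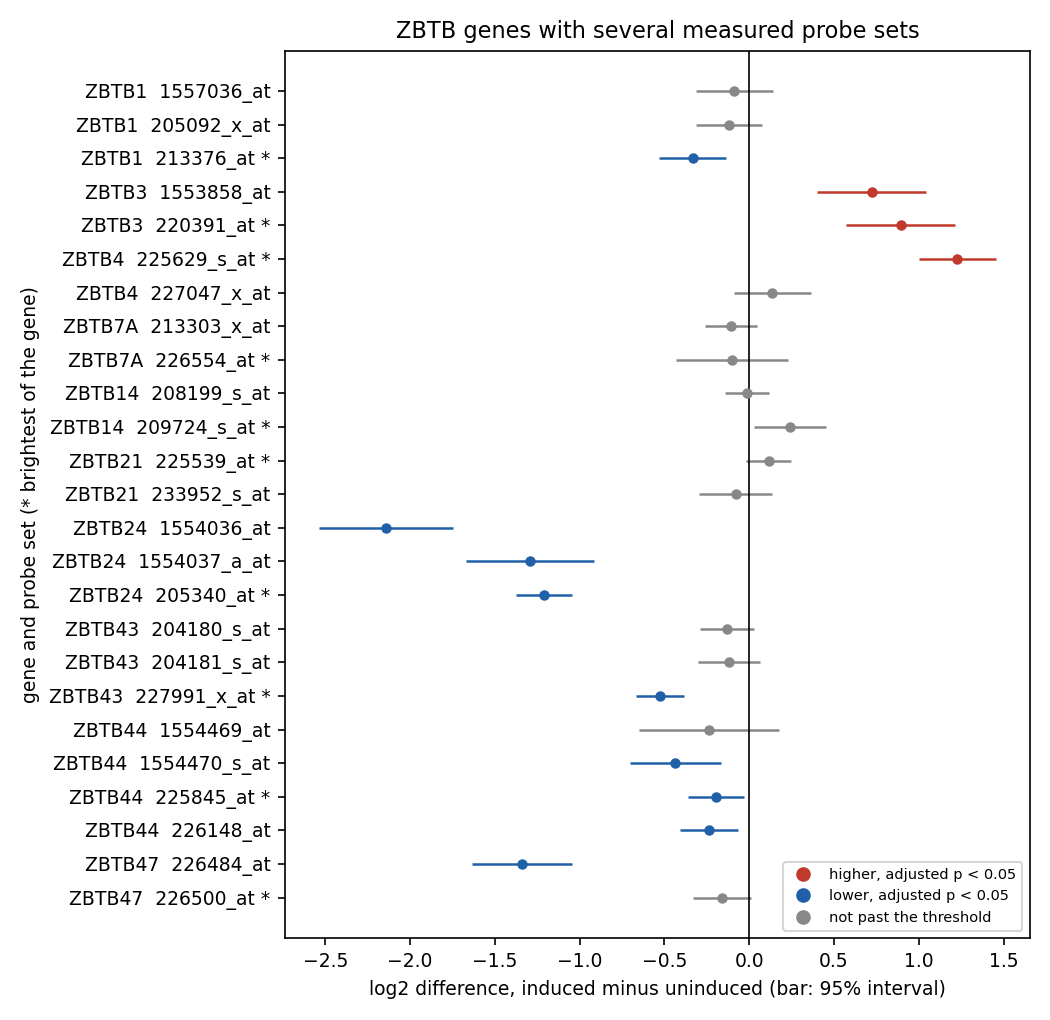
Log2 difference between induced and uninduced samples (x axis, log2 units) for each measured probe set of the 10 ZBTB genes with more than 1, with 95% intervals from limma; stars mark the brightest probe set. The probe sets of ZBTB24 and ZBTB3 fell and rose together, while those of ZBTB4, ZBTB43 and ZBTB47 did not all pass.

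Promoters are shown for the 4 called genes that hold the E-box CACGTG in the 250 bases before a start site, because MYC, which binds this motif with MAX, was itself 11.4-fold lower in induced samples (-3.51, SE 0.07; adjusted p = 2.16e-07). The sequences are from RefSeq, build GRCh38.p14, written 5′ to 3′ on the strand of the gene, with the E-box in capitals. RefSeq promoters were found for 35 of the 40 genes, with 68 start sites on the main chromosomes.
ZBTB24, chr6:109483220-109483469, minus strand: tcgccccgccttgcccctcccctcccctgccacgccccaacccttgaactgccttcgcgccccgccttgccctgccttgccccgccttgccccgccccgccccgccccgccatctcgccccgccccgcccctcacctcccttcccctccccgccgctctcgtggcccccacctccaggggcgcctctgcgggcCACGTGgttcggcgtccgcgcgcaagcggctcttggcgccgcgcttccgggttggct
ZBTB11, chr3:101677133-101677382, minus strand: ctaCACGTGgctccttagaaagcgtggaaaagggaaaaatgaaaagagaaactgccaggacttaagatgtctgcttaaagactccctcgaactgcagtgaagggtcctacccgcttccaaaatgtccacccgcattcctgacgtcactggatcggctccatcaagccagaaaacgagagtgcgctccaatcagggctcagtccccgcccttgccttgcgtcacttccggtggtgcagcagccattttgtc
ZBTB1, chr14:64503637-64503886, plus strand: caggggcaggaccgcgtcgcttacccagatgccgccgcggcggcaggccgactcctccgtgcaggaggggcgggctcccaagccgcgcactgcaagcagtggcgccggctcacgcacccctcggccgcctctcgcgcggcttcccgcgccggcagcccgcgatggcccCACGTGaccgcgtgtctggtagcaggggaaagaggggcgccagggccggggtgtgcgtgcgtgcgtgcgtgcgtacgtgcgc
ZBTB37, chr1:173868130-173868379, plus strand: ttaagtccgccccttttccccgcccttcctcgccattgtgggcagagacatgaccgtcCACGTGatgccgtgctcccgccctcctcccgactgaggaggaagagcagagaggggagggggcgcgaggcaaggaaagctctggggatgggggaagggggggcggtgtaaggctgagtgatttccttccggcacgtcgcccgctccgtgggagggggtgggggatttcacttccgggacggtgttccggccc
The E-box begins 57 bases before the start in ZBTB24, 247 in ZBTB11, 82 in ZBTB1 and 192 in ZBTB37. The first 3 of these genes fell, and ZBTB37 rose. Among members with a promoter, 3 of the 6 that fell, 1 of the 10 that rose, 2 of the 10 that did not pass and 1 of the 9 not measured hold the motif. Counted by start site it stands in 10.3% of those of the members and in 6.34% of all start sites in the table. The E-box is 1 of 12 motifs searched on both strands after the values were known, and a match is not a site of binding. Counts were split by call for the E-box alone, and no such split was made over all genes. A part of MYC in the changes of these genes was not tested. Of the other motifs, AGGTCA, the element that retinoid receptors bind in pairs, stands in 8.82% of the members' and 12.1% of all start sites. TCCTGCNA, a sequence bound by ZBTB33, stands in 7.35% and 3.74%. CCGGAAGT stands in 5.88% and 3.42%, TGACGTCA in 2.94% and 1.65%, TGACG, which overlaps it, in 23.5% and 21.2%, and GCGGGGGCG in 7.35% and 4.72%. CCAAT stands in 38.2% and 32.0%, TATAAA in 8.82% and 10.7% and the interferon response element in 4.41% and 3.02%. Neither the NRF1 nor the YY1 motif stands in any of the members' windows, against 1.03% and 0.373% of all start sites.

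In 12 genes no difference passed the test. The 4 factors listed around MYC, p53 and the CDK inhibitor CDKN1A all belong here. ZBTB17 (Miz-1), through which MYC represses CDKN2B and CDKN1A, lay at 6.78, 6.99 and 6.72 and then at 6.74, 6.75 and 6.67, with overlapping groups (-0.11, 95% interval from -0.31 to 0.10; adjusted p = 0.316). It passed as lower after quantile normalization (-0.25, adjusted p = 0.0096) and median centring (-0.19, adjusted p = 0.041). The highest adjusted p among its alternatives was 0.807. ZBTB2, a repressor of the p53 pathway, lay at 10.05, 10.13 and 9.95 and then at 10.22, 10.15 and 10.10 (0.11, 95% interval from -0.06 to 0.29; adjusted p = 0.207). ZBTB5, a repressor of CDKN1A, lay at 4.29, 4.29 and 4.28 and then at 4.21, 4.44 and 4.29 (0.03, 95% interval from -0.15 to 0.20; adjusted p = 0.790). In both genes the groups overlapped. ZBTB49, an activator of CDKN1A, lay at 5.89, 5.85 and 5.96 and then at 5.82, 5.69 and 5.85 (-0.11, 95% interval from -0.28 to 0.05; adjusted p = 0.201), and passed as lower after quantile normalization (-0.32, adjusted p = 0.0172; highest among its alternatives 0.467). CDKN1A and CDKN2B moved far more. CDKN1A (p21) went from 5.54, 5.02 and 4.20 to 8.70, 8.72 and 8.52, a 13.3-fold rise (3.73, SE 0.31; adjusted p = 5.38e-05). CDKN2B (p15) went from 2.57, 2.62 and 2.52, all below the filter, to 6.76, 6.97 and 6.82, at least 7.21-fold higher against a log2 value of 4 (adjusted p = 1.65e-07). The lowest uninduced array of CDKN1A, at 4.20, lay close to the filter. Whether these rises are linked to MYC or to the ZBTB factors was not tested.

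ZBTB7A (LRF), a repressor of fetal globin genes that also acts in B and T cell fate, lay at 7.78, 8.14 and 7.67 and then at 7.93, 7.68 and 7.67, with a difference of -0.10 (95% interval from -0.43 to 0.23; adjusted p = 0.547). Its second measured probe set differed by -0.11 (adjusted p = 0.183), so neither separated the groups. ZBTB14 (ZF5) went from 7.73, 7.70 and 7.71 to 8.08, 8.01 and 7.77 and just missed the threshold (0.24, SE 0.09; adjusted p = 0.0505). It passed without induced replicate 3 (0.33, adjusted p = 0.0101) and with a stricter filter (0.0395). Its highest adjusted p among the alternatives was 0.172, while its second probe set differed by -0.01 (adjusted p = 0.850). ZBTB47 depended on the probe set. The brighter one, 226500_at, lay at 6.46, 6.47 and 6.53 and then at 6.28, 6.25 and 6.45 (-0.16, adjusted p = 0.0954), and 226484_at fell from 5.63, 5.55 and 5.23 to 4.22, 3.97 and 4.21 (-1.34, SE 0.12; adjusted p = 9.16e-05). The brighter probe set passed as lower without induced replicate 3 (-0.22, adjusted p = 0.0459) and after quantile normalization (-0.34, adjusted p = 0.0204), and the mean over both passed (-0.75, adjusted p = 7.06e-05). Elsewhere among the alternatives its adjusted p reached 0.240. ZBTB21 differed by 0.11 (adjusted p = 0.120), ZBTB40 by 0.19 (0.251) and ZBTB9 by -0.14 (0.170). ZBTB21 passed with no filter (adjusted p = 0.0265; highest among its alternatives 0.823), and ZBTB9 as lower after quantile normalization (-0.31, adjusted p = 0.0138; highest 0.456). Over the 12 genes the 95% intervals reached from -0.43 to 0.50, the widest being those of ZBTB7A and ZBTB40.

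The 10 genes not measured were ZBTB7C, ZBTB8B, ZBTB10, ZBTB12, ZBTB20, ZBTB22, ZBTB25, ZBTB32, ZBTB42 and ZBTB46. Their representatives lay between 1.65 and 3.91 on every array. Dim signal leaves them without a usable level, and so no decrease was visible in them. Among those with a blood or lymphoid role, ZBTB32 lay at 1.65, 1.66 and 1.68 and then at 1.67, 1.65 and 1.66, and ZBTB25 at 2.60, 2.61 and 2.62 and then at 2.62, 2.56 and 2.59. ZBTB20 lay at 2.996, 3.01 and 3.03 and then at 3.05, 2.94 and 3.01. ZBTB10, a factor at telomeres and a repressor of SP1, lay at 2.90, 2.91 and 2.95 and then at 2.93, 2.88 and 2.89. In these 4 genes the groups overlapped. ZBTB46, the factor of dendritic cells, lay at 2.49, 2.77 and 2.56 and then at 3.57, 3.05 and 3.87, which passed in a fit with no filter (0.89, adjusted p = 0.0444) while all 6 arrays stayed under the filter. ZBTB22 lay at 2.39, 2.43 and 2.41 and then at 2.46, 3.91 and 3.26, with 1 induced array just above the uninduced ones (0.81, adjusted p = 0.260 with no filter). None of the 12 probe sets of ZBTB20 was measured.

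Within the set, 4 pairs are close neighbours in the genome. The adjacent genes ZBTB6 and ZBTB26 on chromosome 9 both rose, by 0.65 and 0.69 on the log2 scale. ZBTB43 and ZBTB34, adjacent on the same chromosome, went opposite ways, at -0.53 and 0.78. On chromosome 1 ZBTB8A rose while the adjacent ZBTB8B was not measured, and on chromosome 14 ZBTB1 fell while the overlapping ZBTB25 was not measured.

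Relatives of PLZF that carry other names were read from a list of 8 BTB zinc finger genes. Of these 5 were measured, 1 rose and 1 fell, beside 35.8% and 30.7% of all measured genes. BCL6, the repressor of germinal centre B cells, rose from 8.10, 7.98 and 7.43 to 8.57, 8.86 and 8.69 (1.83-fold; 0.87, SE 0.18; adjusted p = 0.0044). PATZ1 went from 7.08, 6.95 and 6.65 to 6.38, 6.70 and 6.36 with overlapping groups (-0.41, adjusted p = 0.0359). Its call was lost without uninduced replicate 1 (adjusted p = 0.105) or 2 (0.0929), without induced replicate 1 (0.108) or 3 (0.104) and with no filter (0.136), the highest over the alternatives. MYNN did not pass (-0.12, adjusted p = 0.164), but passed as lower after quantile normalization (0.0085), median centring (0.011), with array weights (0.017) and without uninduced replicate 3 (0.027); its highest adjusted p among the alternatives was 0.408. The number of genes of this list that fell was thus 0, 1 or 2 depending on the alternative. Of 4 BTB factors without these fingers 3 were measured. BACH1, a haem-regulated repressor, rose from 9.35 ± 0.07 to 9.74 ± 0.08 (SD, n = 3 each; 1.31-fold, adjusted p = 0.0023). NACC2, a BTB corepressor, fell from 6.11, 6.17 and 5.64 to 4.17, 4.85 and 4.87 (2.54-fold; -1.35, SE 0.22; adjusted p = 0.00165), and NACC1 differed by 0.05 (adjusted p = 0.440).

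Among corepressor genes and cullin 3, the partners of BTB domains, 8 of 13 measured genes rose and 2 fell. Over all measured genes 35.8% rose and 30.7% fell, so many calls in a list are common here. The median log2 difference of the 13 was 0.58, beside 0.02 over all genes. With _x_at and _s_at probe sets left out 4 rose, as fewer genes were then measured. After median centring, and with array weights, 4 fell, and 1 fell when uninduced replicate 1 or 2 or induced replicate 1 or 3 was left out. The class II deacetylase HDAC9, below the filter in uninduced samples, was at least 10.1-fold higher (adjusted p = 8.96e-07). HDAC5 rose from 7.86, 7.69 and 7.33 to 8.91, 8.90 and 8.90 (2.42-fold, adjusted p = 1.65e-04) and the scaffold SIN3A from 8.56, 8.63 and 8.11 to 9.48, 9.44 and 9.38 (1.99-fold, adjusted p = 6.56e-04). HDAC4 went the other way, from 9.96, 10.12 and 9.90 to 9.21, 9.39 and 9.26 (1.63-fold lower, adjusted p = 2.87e-04). CUL3 rose from 11.92 ± 0.06 to 12.25 ± 0.04 (SD, n = 3 each; 1.25-fold, adjusted p = 0.0031). Of 9 measured genes listed as targets or partners of ZBTB factors, 5 rose and 3 fell, beside 35.8% and 30.7% of all measured genes. The median of the 9 was 0.17, beside 0.02 over all genes. Without induced replicate 2, 3 rose, and with _x_at and _s_at probe sets left out 3 rose and 1 fell. Beside those named, SP1, which ZBTB10 represses, was 1.36-fold higher (adjusted p = 0.00233), CDKN2A was 1.24-fold higher (adjusted p = 0.0163), and RUNX3, a gene repressed by ZBTB7B, differed by 0.06 (adjusted p = 0.548). CDKN2A lost its call without induced replicate 2 (adjusted p = 0.0553, the highest over the alternatives). MAX was 1.13-fold higher (adjusted p = 0.0459) and lost its call without any 1 of the 6 arrays (adjusted p = 0.0719 to 0.153) and under other alternatives, with adjusted p up to 0.957.

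**Figure D4:**
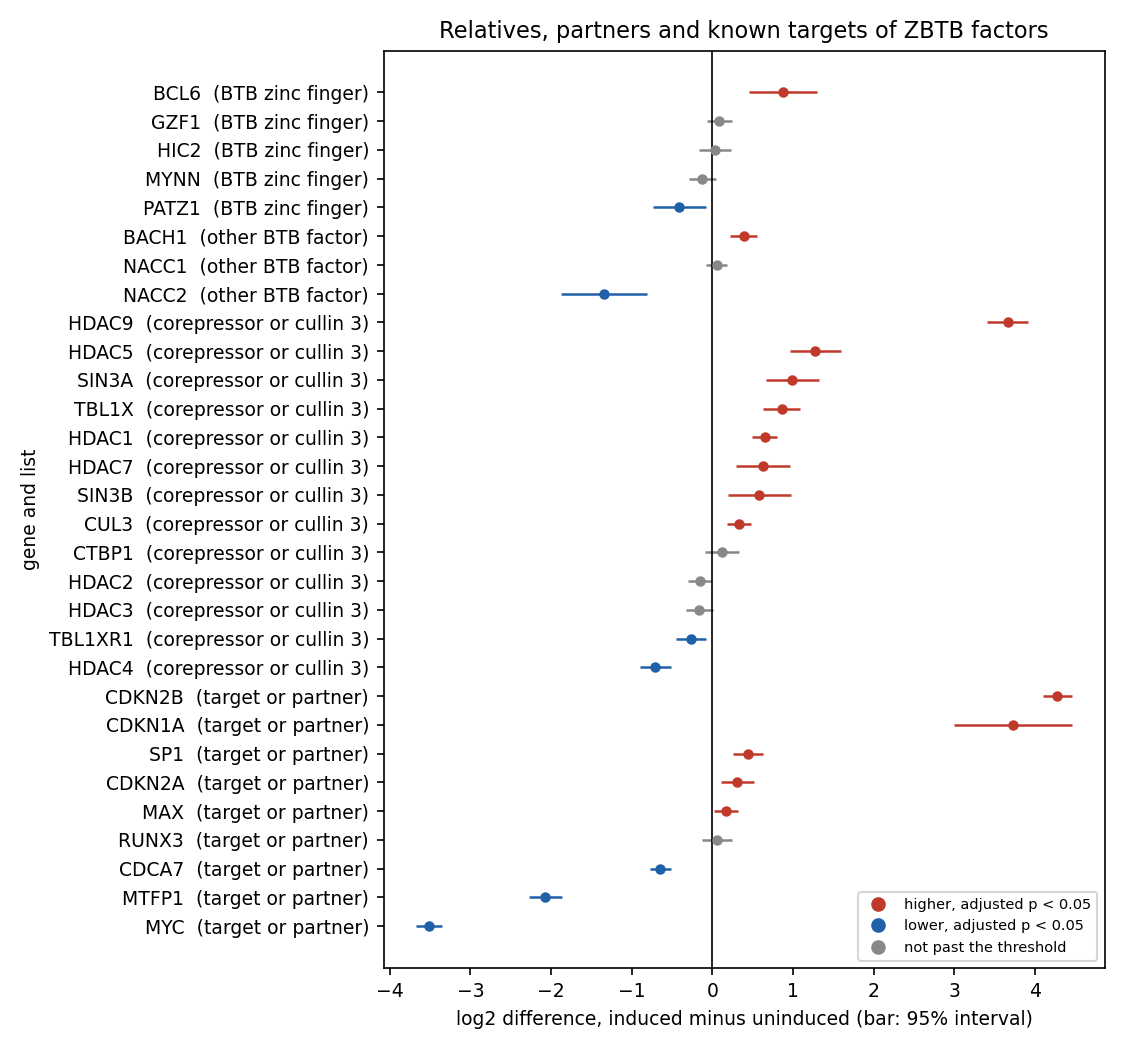
Log2 difference between induced and uninduced samples (x axis, log2 units) for measured relatives, partners and known targets of ZBTB factors, 1 row per gene with its list in brackets and 95% intervals from limma. CDKN2B, CDKN1A and HDAC9 lie farthest to the right and MYC, MTFP1 and NACC2 farthest to the left; CDKN2B and HDAC9 started below the filter, so the size of their difference is not measured.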

How the data were processed

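The deposited table holds 1 GCRMA intensity per probe set and array on a linear scale, per the submitters' processing notes; GCRMA corrects background from probe sequence, normalizes and summarises probes, and draws dim probe sets together. The sources used here give neither its version nor whether arrays were processed together. Values under 1 (6 in all) were raised to 1 and log2 was taken; 62 control probe sets were left out. Genes were named from GEO's platform annotation where it gives 1 symbol, and all 40 members' symbols matched the current gene table by Entrez identifier. Groups, from the titles, were compared with limma 3.58.1 (lmFit, eBayes) in R 4.3.3, two-sided, without covariates. "Rose" and "fell" mean past an adjusted p of 0.05. By the fixed rule the text names every member, members of the role lists with all 6 arrays, the RARA and ZBTB16 probe sets, the 3 largest called differences of each other list, and BCL6, MYC, CDKN2B, CDKN1A, CDCA7 and CUL3; the rest of the rule is not reported here. NACC1, HDAC4, MTFP1, SP1, RUNX3, CDKN2A and MAX were named after their values were seen. Members and lists were chosen with earlier results of these data known. On simulated data with the spread of the 20552 probe sets, the fit recovered 58% of changes of 0.5, 92% of 1 and 100% of 2 and 4 on the log2 scale. There 183 probe sets were called, 8 of them wrongly. Few probe sets were changed in that simulation, while 12845 were called in the data. The adjustment therefore differs, and these rates need not hold for this comparison. Alternatives changed the filter, scaling, variance model, weights, pairing, probe sets and arrays; each other measured probe set of a member was added after seeing the data. Plots were drawn by matplotlib 3.10.9 (Python 3.11.15), and promoters came from RefSeq (GRCh38.p14).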

Additional observations from a re-analysis of the deposited data

How the results depend on the processing

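Of the 18 called ZBTB genes, 11 that rose and 3 that fell kept their direction and side of the threshold under those of the 15 other choices of filter, scaling, model, probe set summary and arrays in which they could be fitted; ZBTB39, ZBTB44, ZBTB48 and ZBTB1 did not, as given with their values. Under another probe set of the same gene, an alternative added after seeing the data, ZBTB4 and ZBTB43, which are among the 14, lost their calls. No call turned round. The count of lower ZBTB genes was 12 after quantile normalization, where 8077 of all probe sets were lower and 6759 higher; that of higher ones ran from 11 to 13 over all alternatives. Leaving out 1 array in turn gave 11 to 12 higher and 4 to 7 lower ZBTB genes, with fewer samples in each fit. Over all probe sets it gave 11594 to 12876 calls, 6455 to 6758 higher and 4914 to 6312 lower, against 12845, 7112 and 5733 in the reported fit. With _x_at and _s_at probe sets left out fewer were tested, and 7537 were called, 4365 higher and 3172 lower. With the replicate number as a block 11 ZBTB genes were higher and 5 lower, and 12809 probe sets were called; same-numbered samples did not deviate together (r = -0.173, 0.000461 and 0.180 over the tested probe sets), so the numbers were not taken as pairs; the block ended the calls of ZBTB39, ZBTB44 and MAX and, of the named genes, no other. Signal near background left 10 genes untested.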
